A study of Homo sapiens with 9 samples.

Results

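A set of 29 genes rose to a peak at 3 h of CHIR99021 and had come down again by 6 h in the Burkitt lymphoma B cell line Ramos, which carries no EBV. CHIR99021 is a cell-permeable GSK-3 inhibitor; GSK-3 is a kinase with alpha and beta forms. RNA was sequenced from untreated cells (0 h) and after 3 h and 6 h in CHIR99021 at 3 µM, with 3 replicates at each time and 9 libraries in all. Untreated cells were sampled at 0 h alone, so the agent and the time in culture cannot be told apart. Levels are read counts scaled to library size by TMM factors (CPM), and they are not corrected for gene length. They cannot tell more RNA per cell from a larger share of cells that carry it.

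A gene was a member when its mean at 3 h was at least 2 CPM and at least 2 times its mean at 0 h, its mean at 6 h was at most 0.6 of its mean at 3 h, and its 3 libraries of 3 h lay above all libraries of 0 h and 6 h. The members were therefore chosen by the levels in all 9 libraries, so the rise to 3 h and the drop after it are described here without a test. Of 28412 genes with any count, of which 15847 had enough reads to be tested, 11272 reached 2 CPM at 3 h and 566 of these had also at least doubled. The 6 h level was at most 0.6 of the 3 h level for 34 of the 566, or 6.01%, and the libraries were separated for all 34. Leaving out HMGCS1, INSIG1, SQLE, ATF5 and DNAJB9, as the rule asks, gave the 29. The last gene the rule leaves out, DUSP5, did not reach 2 CPM. Most genes that had doubled by 3 h stayed up: their median ratio of 6 h to 3 h was 0.919, and 208 were as high or higher at 6 h. All 29 members passed the filter on low counts.

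Of the members, 22 are protein coding, 2 are processed pseudogenes and 2 are noncoding RNAs inside the introns of other genes in GENCODE v29, and 3 identifiers were not in that annotation. TRA2B, TRA2A, SRSF6, RBM15 and RBM4B encode proteins that bind RNA. Serine/arginine-rich (SR) proteins and their relatives TRA2A and TRA2B bind exonic sequences and direct the splicing machinery to nearby sites, and CLK kinases phosphorylate them. Many SR genes also control their own output by splicing in a so-called poison exon, which sends the transcript to nonsense-mediated decay. Gene-level counts do not separate such transcripts from those that are translated. Other members act in zinc export, sterol synthesis, iron-sulphur cluster assembly, glycogen control, ubiquitin ligation and transcription.

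Untreated replicate 3 stood apart from the other libraries of its group. The chi-square statistic of its counts per degree of freedom was 32.6 and 29.2 against untreated replicates 1 and 2, compared with 1.75 between those 2 libraries. It was the lowest untreated library for 16 of the 29 genes. Without it the rule found 24 genes, 23 of them shared with the 29, and CYP51A1, PANX1, ENSG00000155640, FAM161B, ENC1 and PPP1R3B dropped out. Reads in genes numbered 46359911 to 52880876 per library, where a count of 3 corresponds to 0.0567 to 0.0647 CPM. All 10 B cell markers exceeded 1 CPM and summed to 8367 to 9830 CPM per library. Markers of T and NK cells summed to at most 0.625 CPM, those of myeloid cells to at most 0.323 CPM, and those of epithelial cells and fibroblasts to at most 0.123 CPM, with the defining CD3D, CD3E, LYZ and EPCAM below 0.1 CPM in every library.

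Across the 29 genes the median ratio of 3 h to 0 h was 2.54, with a range of 2.03 for TRA2A to 8.13 for ENSG00000270067. The median ratio of 6 h to 3 h was 0.553, with a range of 0.315 for SLC30A1 to 0.60 for PDZRN3. By 6 h a median of 78.4% of the rise had been lost. The loss was smallest for ZNF587B at 56.6% and was complete for SLC30A1. The rule forces a minimum loss, which is larger for genes that rose less, so these percentages partly follow from its limits. Members just inside the limits were TRA2A at 2.03-fold and PDZRN3 at 0.60 of its peak. Genes just outside were KCNJ2, a potassium channel gene, at 1.96-fold, and CYP51A1P1, a pseudogene copy of a member, at 0.601. For the limit of 2 CPM, FOSL2 lay inside at 2.14 CPM and ENSG00000261546 outside at 1.59 CPM.

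**Figure D1:**
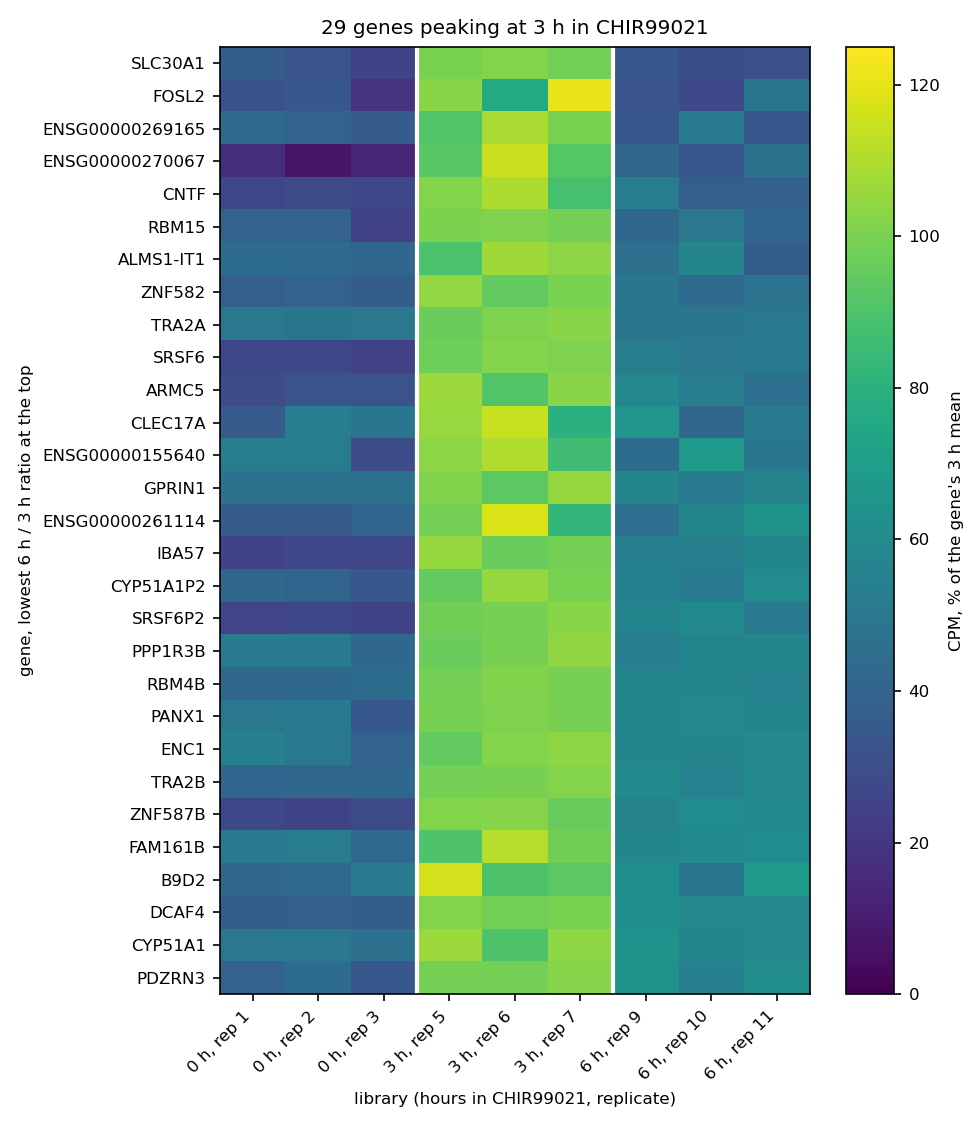
Level of each of the 29 genes in each of the 9 libraries, as a percentage of the gene's own mean CPM at 3 h (colour). Columns run from untreated through 3 h to 6 h of CHIR99021, and rows are ordered by the 6 h to 3 h ratio with SLC30A1, at 0.315, on top. Each row is brightest in its 3 libraries of 3 h, as the rule requires, while the return at 6 h varies between rows.

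The 3 members on the list of SR and CLK genes differed in how far they came back. TRA2B, which binds GAA-rich exonic enhancers, had 311, 317 and 315 CPM at 0 h, 749, 754 and 773 CPM at 3 h, and 454, 420 and 445 CPM at 6 h. SRSF6, an SR protein, had 192, 193 and 175 CPM at 0 h, 694, 726 and 716 CPM at 3 h, and 379, 358 and 369 CPM at 6 h. For both, every library of 6 h lay between those of 0 h and those of 3 h. TRA2A, the closest relative of TRA2B, had 70.2, 69.0 and 70.3 CPM at 0 h, 137, 143 and 146 CPM at 3 h, and 68.9, 69.4 and 71.9 CPM at 6 h. The TRA2A libraries of 6 h and 0 h overlapped, and 99.7% of its rise was lost. The loss was 71.8% for TRA2B and 65.4% for SRSF6. The 3 h to 0 h ratio was 2.03 for TRA2A, 2.41 for TRA2B and 3.81 for SRSF6. Since the rule forces a larger loss on a smaller rise, the order of these losses is partly set by it.

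SRSF6P2, a processed pseudogene of SRSF6, followed its parent. It had 5.5, 5.70 and 5.34 CPM at 0 h, 20.5, 20.8 and 21.5 CPM at 3 h, and 11.8, 12.4 and 10.7 CPM at 6 h. In every library its count was between 2.86% and 3.47% of the SRSF6 count. Reads can be shared between the copies, so SRSF6P2 is uncertain as a gene of its own. The 250 bases before the RefSeq start of SRSF6 (chr20:43457646-43457895 in GRCh38.p14, plus strand) are shown because SRSF6 had the largest 3 h to 0 h ratio of TRA2A, TRA2B and SRSF6. The bases just after the RefSeq start were not found in the GENCODE v29 transcripts of SRSF6 that were searched. Capitals mark, in order, a TCF/LEF motif on the opposite strand and a metal response element.
SRSF6: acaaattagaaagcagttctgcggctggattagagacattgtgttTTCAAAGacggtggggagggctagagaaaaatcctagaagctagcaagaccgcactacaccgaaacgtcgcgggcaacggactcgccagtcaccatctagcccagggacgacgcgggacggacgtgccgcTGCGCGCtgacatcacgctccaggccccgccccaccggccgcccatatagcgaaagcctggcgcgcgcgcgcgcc

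The pattern extended to other genes of the SR and CLK list, though mostly with smaller swings. The list held 18 genes, all tested, of which 3 are members. It was drawn up with earlier results of these data known. Of the other 15 genes, 14 were higher at 3 h than at 0 h and 1, CLK3, was lower (edgeR quasi-likelihood test, adjusted p under 0.05), against backgrounds of 32.8% higher and 33.5% lower among all genes tested. At 6 h against 3 h, 9 of the 15 were lower and 4 were higher, against backgrounds of 21.9% and 21.5%. All 9 were among those higher at 3 h, a combination that 8.72% of all genes tested showed. The 15 include CIRBP, RBM3 and HNRNPH1, which are not SR, TRA2 or CLK genes. These were among the 14 that rose at 3 h. CIRBP was also among the 9 that fell, while RBM3 and HNRNPH1 rose further. The median log2 fold change of the 15 was 0.67 at 3 h against 0 h and -0.18 at 6 h against 3 h, beside -0.01 and 0.01 over all genes tested. CLK2 did not pass at 3 h under upper-quartile or library-size scaling, which left 13 higher.

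SRSF2 averaged 246, 682 and 547 CPM at 0 h, 3 h and 6 h. SRSF7 averaged 242, 401 and 278 CPM at the same times, and SRSF4 averaged 195, 317 and 228 CPM. Their log2 fold changes at 6 h against 3 h were -0.32 for SRSF2, -0.53 for SRSF7 and -0.47 for SRSF4 (edgeR adjusted p = 6.4e-05, 2.74e-06 and 6.04e-06). SRSF1 and the cold-inducible RNA-binding gene RBM3 did not turn back. SRSF1 averaged 446, 748 and 1012 CPM, and its log2 fold change at 6 h against 3 h was 0.44 (edgeR adjusted p = 7.73e-06). RBM3 averaged 105, 298 and 345 CPM, and its log2 fold change was 0.21 (edgeR adjusted p = 0.00191).

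**Figure D2:**
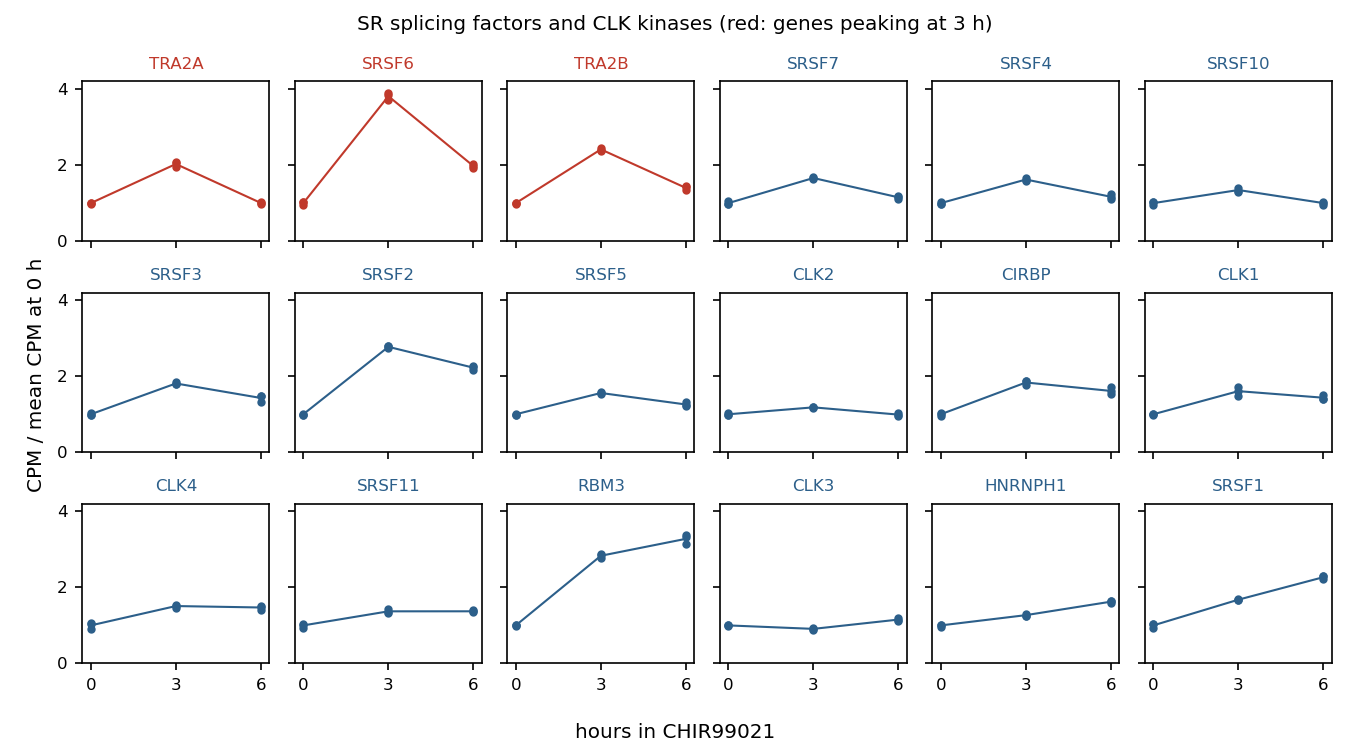
CPM divided by the mean CPM at 0 h for the 18 genes of the SR and CLK list, against hours in CHIR99021; points are libraries and lines join the means. Red panels are the members TRA2A, SRSF6 and TRA2B, and panels are ordered by the 6 h to 3 h ratio, so that genes which kept rising, such as SRSF1, come last.

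A pair of further RNA-binding genes belonged to the set. RBM15, which brings the m6A RNA methylation complex to its targets, had 53.6, 52.8 and 32.8 CPM at 0 h, 135, 135 and 133 CPM at 3 h, and 56.8, 66.4 and 54.7 CPM at 6 h. The 3 libraries of 3 h were close together, and the spread at 0 h came from untreated replicate 3. RBM4B, a splicing and translation regulator, had 21.8, 21.6 and 23.0 CPM at 0 h, 51.4, 52.6 and 51.6 CPM at 3 h, and 29.2, 29.7 and 28.8 CPM at 6 h. Its libraries did not overlap between any of the 3 times. RBM4B overlaps its relative RBM4 on the opposite strand in GENCODE v29, and without a stated strand setting reads from such a pair cannot be told apart.

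Relatives of these genes, picked after their values were seen, moved likewise in part. SPEN, a repressor that shares its domain structure with RBM15, averaged 222, 639 and 422 CPM at 0 h, 3 h and 6 h. RBM14, a relative of RBM4, averaged 124, 319 and 196 CPM, and RBM4 averaged 17.4, 41.9 and 32.9 CPM. All 3 rose at 3 h and fell between 3 h and 6 h, as 8.72% of all genes tested did. The edgeR adjusted p of the drop was 0.0339 for SPEN, 2.21e-07 for RBM14 and 0.000125 for RBM4. Of 6 other tested genes of the m6A writer complex, 5 rose at 3 h, against a background of 32.8% of all genes tested, and 3 of those fell afterwards, against 8.72% that did both. WTAP, its scaffold subunit, averaged 121, 178 and 157 CPM, and the catalytic subunit METTL3 averaged 73.5, 70.9 and 105 CPM, which did not pass at 3 h (edgeR adjusted p = 0.24). METTL3 and VIRMA were higher at 6 h than at 3 h (edgeR adjusted p = 9.52e-07 and 0.00898), against a background of 21.5%. VIRMA averaged 66.2, 86.9 and 103 CPM. Under library-size scaling CBLL1 and ZC3H13 of this complex no longer passed at 3 h, and METTL3 was lower there under upper-quartile and library-size scaling.

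The 250 bases before the RefSeq start of RBM15 (chr1:110339127-110339376 in GRCh38.p14, plus strand) are shown because they hold more CCAAT boxes than those of the other members with a RefSeq promoter entry. Capitals mark CCAAT, an E-box CACGTG after the upstream CCAAT, and the 3 further CCAAT boxes.
RBM15: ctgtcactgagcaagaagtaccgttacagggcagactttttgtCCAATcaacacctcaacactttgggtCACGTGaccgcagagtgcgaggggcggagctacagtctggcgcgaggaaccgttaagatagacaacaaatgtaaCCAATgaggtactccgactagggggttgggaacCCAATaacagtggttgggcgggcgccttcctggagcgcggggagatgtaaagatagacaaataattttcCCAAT

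SLC30A1, the zinc exporter of the plasma membrane, gave the sharpest pulse. It had 19.7, 17.5 and 13.7 CPM at 0 h, 53.6, 54.7 and 53 CPM at 3 h, and 18.3, 16.2 and 16.3 CPM at 6 h. The peak was 3.17 times the untreated mean and was gone by 6 h, when the libraries overlapped those of 0 h. In the test of 6 h against 0 h it differed by -0.02 on the log2 scale (SE 0.10, edgeR adjusted p = 0.891). Without untreated replicate 3 it was -0.15 (edgeR adjusted p = 0.047), so that SLC30A1 then passed as lower at 6 h than at 0 h.

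Zinc homeostasis works through exporters of the SLC30 family, importers of the SLC39 family, and the zinc-sensing factor MTF1, which binds metal response elements and activates SLC30A1 and metallothionein genes. These families were added after their values were seen. MTF1 had 15.4, 15.1 and 12 CPM at 0 h, 30.3, 30.7 and 28.2 CPM at 3 h, and 26.1, 28.6 and 28.2 CPM at 6 h. It rose at 3 h (log2 fold change 1.05, edgeR adjusted p = 6.3e-08) and was not shown to differ between 3 h and 6 h (-0.10, edgeR adjusted p = 0.318). The metallothionein MT1X averaged 0.597, 1.72 and 1.97 CPM and was likewise higher at 3 h (1.51, edgeR adjusted p = 6.94e-07) with no difference past the threshold after it (0.20, edgeR adjusted p = 0.237). The other metallothionein tested, MT1F, averaged 0.559, 0.593 and 0.517 CPM. It was not shown to change at 3 h or 6 h against 0 h (edgeR adjusted p = 0.849 and 0.72). The remaining metallothionein genes were near or at 0, among them MT2A with at most 0.144 CPM.

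Of 10 tested importers, 6 rose and 3 fell at 3 h, against backgrounds of 32.8% and 33.5%. SLC39A13 did not pass there under upper-quartile or library-size scaling, and SLC39A1 was lower under library-size scaling. SLC39A8, with means of 135, 185 and 154 CPM, and SLC39A9, with means of 225, 289 and 161 CPM, rose at 3 h and fell after it. SLC39A10, singled out after its values were seen, was 1 of the 3 that fell. It had 31.2, 29.7 and 22.6 CPM at 0 h, 10.7, 12.6 and 11.2 CPM at 3 h, and 19.8, 19.8 and 21.3 CPM at 6 h. It fell at 3 h (log2 fold change -1.29, edgeR adjusted p = 2.1e-07) and rose between 3 h and 6 h (0.82, edgeR adjusted p = 5.87e-05). Of 6 other tested exporters, SLC30A5, SLC30A6 and SLC30A7 rose at 3 h and SLC30A3, SLC30A4 and SLC30A9 fell, against the same backgrounds. SLC30A6 did not pass at 3 h under upper-quartile or library-size scaling. Of the 3 exporters that rose, the largest drop after 3 h was -0.05 for SLC30A7 (edgeR adjusted p = 0.686). None of these 6 both rose at 3 h and fell afterwards, as 8.72% of all genes tested did, and nothing is read from that count.

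The 250 bases before the RefSeq start of SLC30A1 (chr1:211579162-211579411 in GRCh38.p14, minus strand, written in the direction of transcription, and upstream of the GENCODE v29 start) are shown because this promoter is a known target of MTF1. Capitals mark 2 CCAAT boxes and, nearer the start, a metal response element read on the opposite strand.
SLC30A1: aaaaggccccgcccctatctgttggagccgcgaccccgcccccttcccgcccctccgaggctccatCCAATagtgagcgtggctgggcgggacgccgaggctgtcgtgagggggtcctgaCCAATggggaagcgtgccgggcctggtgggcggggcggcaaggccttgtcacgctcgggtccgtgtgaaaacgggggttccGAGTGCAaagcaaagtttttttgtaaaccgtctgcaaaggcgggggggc

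**Figure D3:**
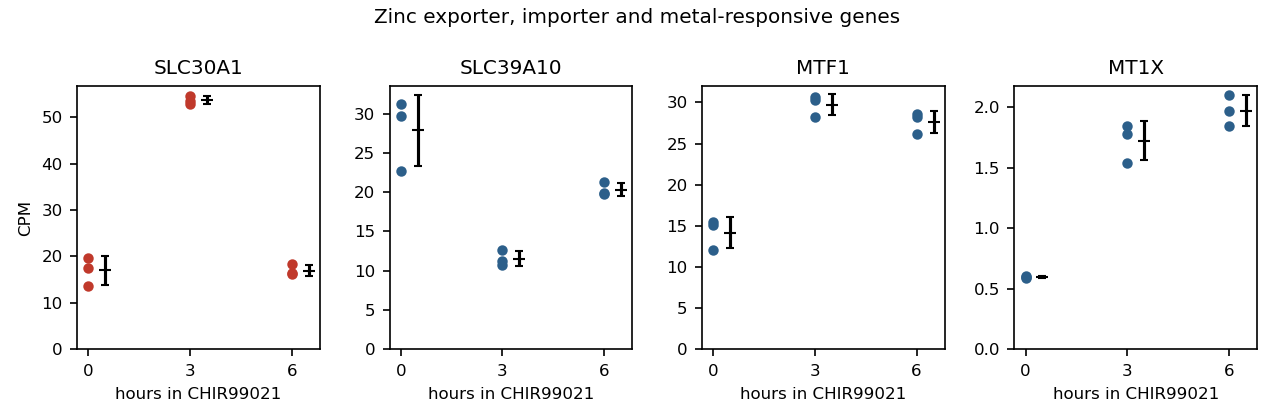
CPM in each library against hours in CHIR99021 for SLC30A1 and for SLC39A10, MTF1 and MT1X; points are libraries, and the black marks beside them are the mean and SD of 3 libraries. SLC30A1 peaks at 53.8 CPM and returns to 16.9 CPM, SLC39A10 dips to 11.5 CPM, and MTF1 and MT1X stay up at 6 h.

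CYP51A1 represents the sterol pathway, whose other genes that met the thresholds were left out by the rule. It encodes the demethylase that acts on lanosterol in cholesterol synthesis. It had 26.1, 26.1 and 24.0 CPM at 0 h, 55.3, 46.9 and 53.9 CPM at 3 h, and 33.3, 29.9 and 30.2 CPM at 6 h. The processed pseudogene CYP51A1P2 averaged 11.2, 28.8 and 16.0 CPM at the same times, and its count was 40.9% to 64.7% of the CYP51A1 count across libraries. A further copy, CYP51A1P1, had a nearly equal pattern and lay just outside the limit. Reads may be shared among the 3, so the values of each are uncertain. Of the 33 other tested genes on a list of sterol and fatty acid synthesis genes, 24 were higher at 3 h and 21 were lower at 6 h than at 3 h, with 18 in both counts. The backgrounds were 32.8%, 21.9% and 8.72% of all genes tested. The 33 include HMGCS1, INSIG1 and SQLE, which met the thresholds and were left out by name. Each of these counts therefore holds them because of the same peak at 3 h. Of the 33, 5 were lower at 3 h than at 0 h and 1 was higher at 6 h than at 3 h. SREBF1 and FDFT1 did not pass at 3 h under upper-quartile or library-size scaling.

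A pair of members act in metabolism. IBA57, which completes iron-sulphur clusters in mitochondria, had 15.2, 15.5 and 15.5 CPM at 0 h, 61.7, 56.4 and 57.9 CPM at 3 h, and 31.7, 32.0 and 33.8 CPM at 6 h. Its peak was 3.81 times the untreated mean, and the 6 h libraries stayed at 2.11 times that mean.

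PPP1R3B directs protein phosphatase 1 to glycogen, where it counters the phosphorylation of glycogen synthase, an enzyme that GSK-3 inhibits. It had 16.2, 16.4 and 13.3 CPM at 0 h, 30.4, 31.4 and 32.9 CPM at 3 h, and 16.9, 17.9 and 18.1 CPM at 6 h. It barely met the 2-fold limit at 2.06-fold. The 3 other tested subunits of its family, chosen after their values were seen, fell at 3 h, as 33.5% of all genes tested did. PPP1R3E averaged 61.5, 29.8 and 36.3 CPM, PPP1R3D 11.3, 7.99 and 8.41 CPM, and PPP1R3F 11.4, 6.42 and 10.3 CPM at 0 h, 3 h and 6 h. Their log2 fold changes at 3 h against 0 h were -1.06, -0.51 and -0.84 (edgeR adjusted p = 2.09e-08, 2.1e-05 and 1.96e-07).

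Members linked to ubiquitin ligases peaked at 6.27 to 43.5 CPM on average. DCAF4, a substrate receptor of CUL4 ligases, had 16.0, 16.3 and 16.1 CPM at 0 h, 44.3, 42.7 and 43.4 CPM at 3 h, and 26.6, 25.6 and 25.5 CPM at 6 h. ARMC5, a CUL3 adaptor and adrenal tumour suppressor, had 7.66, 8.40 and 8.39 CPM at 0 h, 28.0, 24.0 and 27.1 CPM at 3 h, and 15.2, 13.8 and 12.1 CPM at 6 h. Neither gene's libraries overlapped between any of the 3 times. ENC1, an actin-binding kelch protein, had 5.94, 5.56 and 4.34 CPM at 0 h, 10.4, 11.1 and 11.4 CPM at 3 h, and 6.22, 6.24 and 6.48 CPM at 6 h. PDZRN3, a RING-type ligase, averaged 2.47, 6.27 and 3.76 CPM.

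The transcript AC026471.1, annotated antisense to ARMC5, changed in the other direction. It averaged 7.00, 1.23 and 1.41 CPM at 0 h, 3 h and 6 h, a log2 fold change of -2.52 at 3 h against 0 h (SE 0.12, edgeR adjusted p = 3.95e-10), and it was not shown to differ between 3 h and 6 h (edgeR adjusted p = 0.302). Without a stated strand setting, reads cannot be assigned between the 2 strands for certain. CYP51A1-AS1, antisense to CYP51A1, was also lower at 3 h, with 0.0831 CPM against 0.474 CPM at 0 h (log2 fold change -2.51, SE 0.40, edgeR adjusted p = 6.86e-05). Its level at 3 h was close to that of a count of 3, 0.0567 to 0.0647 CPM, so the size of its fall is imprecise. RBM15-AS1 was higher at 3 h, with 0.438 CPM against 0.200 CPM at 0 h (1.10, edgeR adjusted p = 0.00202).

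Among genes of the cell surface and its signalling, PANX1, a channel that releases ATP, had 16.3, 16.7 and 11.2 CPM at 0 h, 32.4, 32.9 and 32.4 CPM at 3 h, and 18.7, 19.1 and 18.5 CPM at 6 h. GPRIN1, which binds G protein alpha subunits, had 15, 14.9 and 14.9 CPM at 0 h, 32.2, 29.8 and 33.6 CPM at 3 h, and 18.1, 16.4 and 17.8 CPM at 6 h. CLEC17A, a lectin of B cells, averaged 1.04, 2.27 and 1.21 CPM, and its libraries of 6 h and 0 h overlapped. CNTF, a neurotrophic cytokine, had 0.643, 0.702 and 0.657 CPM at 0 h, 2.46, 2.66 and 2.14 CPM at 3 h, and 1.27, 0.920 and 0.922 CPM at 6 h. The readthrough gene ZFP91-CNTF, which shares sequence with CNTF, averaged at most 0.124 CPM at any time.

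Transcription factor genes were 3 of the members. ZNF587B, a KRAB zinc finger gene, had 11.6, 10.9 and 12.4 CPM at 0 h, 43.7, 43.7 and 41.1 CPM at 3 h, and 23.9, 26.1 and 25.6 CPM at 6 h. ZNF586, which overlaps ZNF587B on the same strand, averaged 12.7, 12.9 and 14.0 CPM and was not shown to change at 3 h (edgeR adjusted p = 0.912). ZNF582, of the same class, had 1.11, 1.16 and 1.09 CPM at 0 h, 3.11, 2.81 and 2.96 CPM at 3 h, and 1.46, 1.29 and 1.41 CPM at 6 h. FOSL2, an AP-1 subunit, had 0.678, 0.736 and 0.401 CPM at 0 h, 2.21, 1.63 and 2.59 CPM at 3 h, and 0.708, 0.591 and 1.04 CPM at 6 h.

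FOSL2 was the sole member on the list of immediate early and AP-1 genes. Of the 23 other tested genes there, 7 were higher and 10 lower at 3 h than at 0 h, and 15 were lower and 1 higher at 6 h than at 3 h. The backgrounds were 32.8% and 33.5% at 3 h, and 21.9% and 21.5% after it. The genes that rose at 3 h and then fell were 6 of the 23, namely EGR1, EGR4, JUNB, KLF10, SRF and ZFP36L1, against 8.72% of all genes tested. Of these, EGR4, EGR1 and SRF are given after their values were seen. EGR4, a zinc finger factor, averaged 0.142, 1.24 and 0.126 CPM, and its relative EGR1 averaged 0.283, 0.686 and 0.240 CPM. SRF, the factor that binds CArG boxes, averaged 85.8, 176 and 115 CPM. EGR1 and EGR4 did not reach 2 CPM, and the 6 h level of SRF was 0.65 of its level at 3 h. MAFK did not pass at 3 h under upper-quartile or library-size scaling. FOSB, a relative, averaged 1.84, 1.88 and 1.12 CPM and fell between 3 h and 6 h (log2 fold change -0.75, edgeR adjusted p = 0.00258) without having changed past the threshold at 3 h (edgeR adjusted p = 0.945). FOS itself stayed at or below 0.188 CPM in every library and was not tested.

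The remaining members are linked to cilia, lie inside introns or have no name in the sources used here. B9D2, of the ciliary transition zone, had 1.93, 2.02 and 2.39 CPM at 0 h, 5.42, 4.19 and 4.36 CPM at 3 h, and 2.90, 2.26 and 3.16 CPM at 6 h. FAM161B averaged 2.42, 4.97 and 2.94 CPM. ALMS1-IT1, a noncoding RNA inside an intron of the centrosomal gene ALMS1, had 1.5, 1.47 and 1.39 CPM at 0 h, 3.02, 3.62 and 3.50 CPM at 3 h, and 1.57, 1.93 and 1.24 CPM at 6 h. ALMS1 itself averaged 42.7, 45.4 and 44.0 CPM and was not shown to change (edgeR adjusted p = 0.772 at 3 h against 0 h).

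ENSG00000261114, inside an intron of the endoplasmic reticulum gene HERPUD1, averaged 0.869, 2.31 and 1.28 CPM. HERPUD1 averaged 151, 399 and 295 CPM, and the intronic identifier held 0.349% to 0.690% of its count in each library. ENSG00000270067 had the largest ratio of the set, with 0.188 to 0.393 CPM at 0 h, 2.22 to 2.78 CPM at 3 h and 0.810 to 1.13 CPM at 6 h. ENSG00000155640 averaged 11.7, 26.0 and 13.9 CPM, and ENSG00000269165 averaged 1.24, 3.13 and 1.24 CPM.

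Whether these genes had returned to the untreated level by 6 h was tested by comparing 6 h with 0 h. The rule used the same libraries: it favours genes that are low at 0 h and caps the 6 h to 0 h ratio at 0.6 of the 3 h to 0 h ratio, so the counts describe the set and nothing is read from their distance to the background. Of the 29 genes, 19 (65.5%) were higher at 6 h than at 0 h and 0 were lower (edgeR quasi-likelihood test, Benjamini-Hochberg over 15847 genes, adjusted p under 0.05). Among all genes tested, 35.7% were higher and 35.0% were lower. No member was lower at an unadjusted p under 0.05, and DESeq2 gave 17 higher and 0 lower. The 3 libraries of 6 h lay above all 3 of 0 h for 21 genes and overlapped them for 8, against 37.2% of all genes tested with 6 h wholly above and 34.7% wholly below. The median log2 fold change was 0.34 for the 29 genes and 0.02 for all genes tested.

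The genes furthest above the untreated level at 6 h were ENSG00000270067 (log2 fold change 1.71, SE 0.25), ZNF587B (1.10, SE 0.07), SRSF6P2 (1.07, SE 0.07), IBA57 (1.06, SE 0.06) and SRSF6 (0.97, SE 0.05). Their edgeR adjusted p ranged from 5.74e-10 for SRSF6 to 3.48e-05 for ENSG00000270067. These genes also had the largest 3 h to 0 h ratios of the set. The cap in the rule left these genes the most room. ARMC5 (0.73, SE 0.09), DCAF4 (0.67, SE 0.05) and TRA2B (0.47, SE 0.04) stood between these and the untreated level. RBM4B, CYP51A1P2 and PDZRN3 complete the 11 genes that passed in the main test and in all 17 alternatives. The other 8 that passed, with log2 fold changes of 0.19 for PPP1R3B to 0.62 for CNTF, did not pass in at least 1 alternative. Of the 17 alternatives, ENC1 passed in 3, PPP1R3B in 7, B9D2 in 8 and ENSG00000261114 in 11. PANX1 passed in 13, and CYP51A1, GPRIN1 and CNTF in 15.

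The 10 genes that did not pass were TRA2A, RBM15, SLC30A1, FAM161B, ALMS1-IT1, ZNF582, CLEC17A, FOSL2, ENSG00000155640 and ENSG00000269165. TRA2A differed by -0.01 on the log2 scale (SE 0.05, edgeR adjusted p = 0.848). RBM15 differed by 0.34 (SE 0.17, edgeR adjusted p = 0.0957), and by 0.14 without untreated replicate 3 (edgeR adjusted p = 0.0666). For genes of low count a difference may not have been detectable at this depth, as for FOSL2 at 0.34 (SE 0.29, edgeR adjusted p = 0.316). Without untreated replicate 3, 17 of the 29 were higher and 1, SLC30A1, was lower; PPP1R3B and ENC1 no longer passed, at 0.10 and 0.12 (edgeR adjusted p = 0.16 and 0.213). Library-size scaling left 11 higher and 2 lower and upper-quartile scaling 12 higher and 1 lower, with the median of all genes tested at -0.22 and -0.13.

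**Figure D4:**
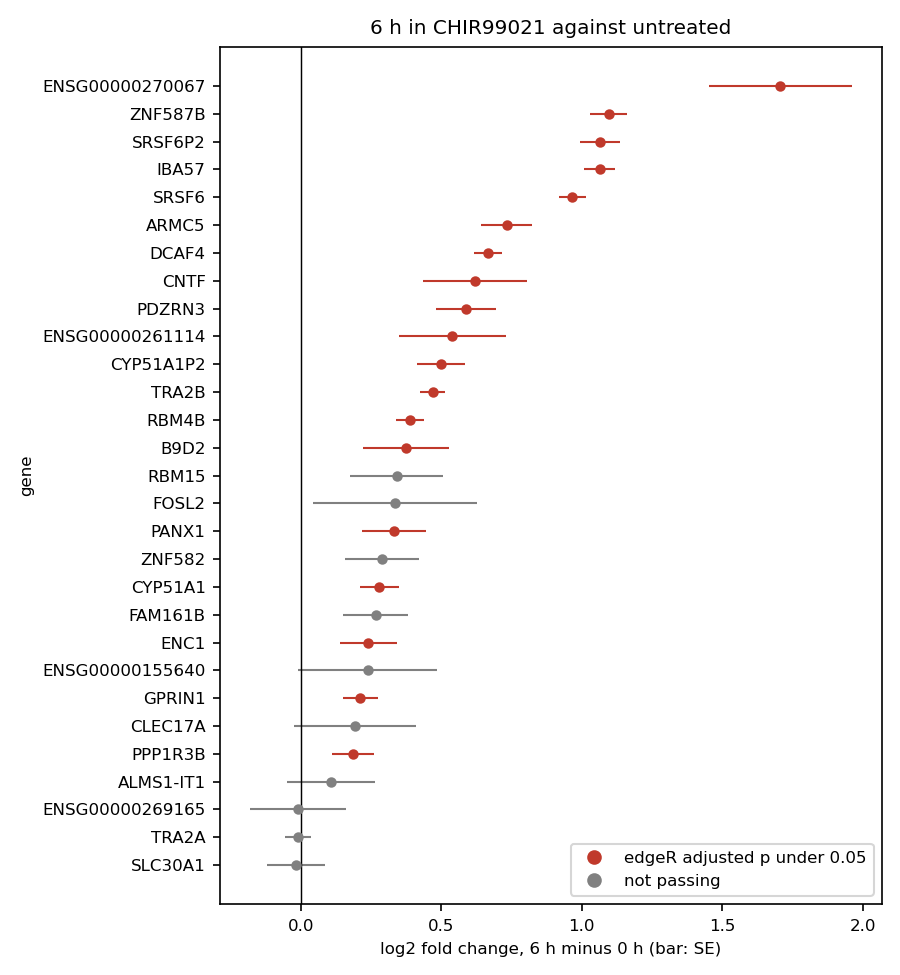
Log2 fold change at 6 h of CHIR99021 against untreated for each of the 29 genes, with bars of 1 SE from the fit to 9 libraries. Red points passed an edgeR adjusted p of 0.05, 19 genes in all, and lie right of 0; SLC30A1, TRA2A and ENSG00000269165 lie at 0 within their SE.

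**Figure D5:**
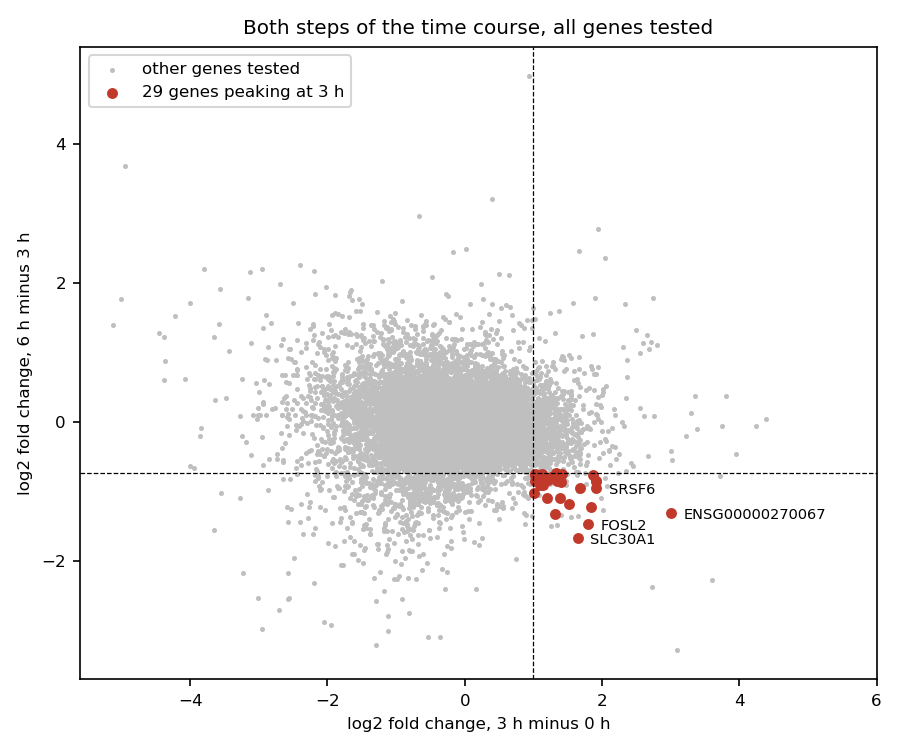
Log2 fold change at 6 h against 3 h plotted against that at 3 h against 0 h for all 15847 genes tested, with the 29 members in red and dashed lines at the fold limits of the rule. Grey points inside the lower right corner did not reach 2 CPM at 3 h or are among the genes that the rule leaves out; the 2 axes share the libraries of 3 h, so no relation is read from them.

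Gene structure and promoters give properties that the rule did not use. The 22 protein-coding members had a median of 4 exons in their longest transcript, against 8 for the 11619 protein-coding genes tested, at median transcript lengths of 4144 and 3643 bases. Retained-intron transcripts are annotated in GENCODE v29 for 6 of the 22 (27.3%), against 58.8% of protein-coding genes tested, and transcripts marked for nonsense-mediated decay for 8 (36.4%) against 44.5%. No test was made of these shares. Chromosome 19 holds 4 of the members, namely ZNF582, ZNF587B, B9D2 and CLEC17A.

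Promoter windows of 250 bases before to 50 after the start were matched by symbol in RefSeq (GRCh38.p14) for 19 members. For 14 of these, bases after the start were found in a GENCODE v29 transcript of the gene. The metal response element, TGCACNC or TGCGCNC on either strand, was added to the search after the SLC30A1 values were seen. It occurred in 12 of the 19 windows (63.2%), against 37.0% of 14733 windows of genes tested and 29.6% of all 35116 windows in the table. The 12 were SLC30A1, SRSF6, IBA57, RBM4B, ARMC5, DCAF4, PDZRN3, B9D2, ZNF582, ZNF587B, CNTF and FOSL2. CCAAT occurred in 8 windows (42.1%, against 35.1% of genes tested), and the E-box CACGTG in 3, DCAF4, RBM15 and ZNF587B (15.8%, against 9.39%). In the 150 bases before the start the E-box was left in ZNF587B alone (5.26%, against 6.05%), and the metal response element in 9 windows (47.4%, against 22.5%). With 19 windows, each share moves by several percentage points for 1 gene, and a match of letters is not evidence of binding.

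The TCF/LEF motif, CTTTGAA or CTTTGAT, lay in the SRSF6 and CNTF windows (10.5%, against 4.22% of genes tested). The AP-1 motif TGANTCA lay in those of FOSL2 and CNTF (10.5%, against 4.85%). An NF-kappaB motif was found in the windows of CYP51A1, PANX1, PDZRN3 and GPRIN1 (21.1%, against 13.1%). The heat shock element GAANNTTC was in the window of PDZRN3 and the STAT motif TTCNNNGAA in that of ZNF582 (5.26% each, against 4.76% and 6.26%). No window held the cyclic AMP response element TGACGTCA, the TATA motif TATAAA, the E2F motifs TTTCGCGC or TTTGGCGC, the sterol regulatory element, the endoplasmic reticulum stress element or a CArG box. Their shares of the windows of genes tested were 2.82%, 6.32%, 1.85%, 0.0475%, 0.115% and 1.07%. At shares this low, finding none in 19 windows is uninformative. The sterol regulatory element was searched in an exact spelling without variants, so the search cannot show that CYP51A1 lacks it. All motifs were read on both strands.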

How the data were processed

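RNA was sequenced in 9 libraries of Ramos cells. The authors deposited a table of read counts, unscaled, with 1 row for each Ensembl gene; its values are whole and sum to unequal totals. Per the submitters' processing notes, the tools were GSNAP, HTSeq 0.6.0 and limma 3.30.0 with build hg19. The strand setting, counting mode and annotation release are not given in the sources used here. The table's 5 summary rows, 29.1% to 32.4% of reads, were set aside.

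The rule for members was applied to CPM scaled by TMM factors over all genes. Genes were tested with edgeR 4.0.16 in R 4.3.3 (filterByExpr with a minimum count of 10 and a minimum total of 15, TMM, robust quasi-likelihood fit with 1 mean per time over 9 libraries, 6 residual degrees of freedom, two-sided, Benjamini-Hochberg over 15847 genes, threshold 0.05). The filter left 15847 of 28412 genes with any count. The labels call the samples replicates without saying more on their cultures, and p-values then measure the spread between these samples. The members, gene lists, tests and named genes were chosen with earlier results of these data known, and the families of members' relatives after their values were seen. Values in every library are given for named members with the highest 3 h level, the largest or smallest changes, or a place on a gene list. All other members are given by their means or ranges. Symbols were matched by identifier for 25 of the 29. Gene features came from GENCODE v29 (GRCh38), matched by identifier, and promoter windows from RefSeq (GRCh38.p14), matched by symbol. Alternatives were other scalings, filters, DESeq2 1.42.0, limma-voom (limma 3.58.1), the compared groups alone, other limits of the rule, and each library left out. Figures were drawn with matplotlib 3.10.9.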

Additional observations from a re-analysis of the deposited data

How the results depend on the processing

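The rule found 29 genes with DESeq2 size factors, 28 with factors computed after the filter on low counts (added after seeing the data; PDZRN3 dropped out), 23 with upper-quartile factors and 21 with library size alone. Without each library in turn it found 24 to 34. Its limits moved the number further: 9 genes at a 3-fold rise, 64 with a 6 h to 3 h limit of 0.7, 9 with a limit of 0.5, and 19 at 5 CPM. Against 0 h, genes higher at 6 h numbered 19, against 12 with upper-quartile factors and 11 with library size alone; genes lower numbered 0, against 1 and 2 (TRA2A, and then SLC30A1 too). These scalings set the median of all genes tested at -0.13 and -0.22, and 39.3% and 32.8% of all calls were higher, against 50.5%. With library size alone GPRIN1 turned to -0.024 (adjusted p = 0.717) and PPP1R3B to -0.0496 (adjusted p = 0.574). Leaving out each library gave 15 to 18 higher, and 0 or 1 lower. The filters, tests and fits tried besides gave 15 to 19 higher and 0 lower. Among the genes of the SR and CLK list that are no members, 14 rose at 3 h and 7 to 9 fell after it whichever library was left out. Over all settings, the single members' results at 6 h against 0 h kept their call, or the motif shares their range, in 452 comparisons. These include sign changes of genes that passed in neither setting, such as SLC30A1 at 0.09 without untreated replicate 1. A call was lost with the same sign in 47, gained in 5, and lost with a change of sign in 2. The heat shock element, in 0 of the shorter windows, moved in 1. The cause of these changes was not tested. No paired analysis was possible because the replicate numbers of the 3 times are not shared. At 46359911 to 52880876 reads in genes, members near 1 CPM rest on few reads per library, which limits their precision.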
